A study of Homo sapiens with 6 samples.

Results

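The transcription factor p53 is known above all for a small set of targets that stop the cell cycle, repair DNA or start cell death. The genes described here are 60 less studied ones, reported as bound and activated by p53 in many cell types but outside those arrest and death programmes. They were listed by symbol, with no use of a measured value in the rule. The list was nevertheless chosen with earlier results of these data known. All 60 were found among the 58336 genes of the deposited count table. The study treated A2780, a human ovarian cancer cell line, with DMSO vehicle or with 6 µM TH588 for 48 h, and polyA RNA from 3 biological replicates (A, B and C) of each treatment was sequenced. TH588 is an early inhibitor of MTH1, a hydrolase that clears oxidized nucleotides, and it also stalls cells in mitosis. The question put to the 60 genes was whether they moved with the classic p53 targets under TH588, and by how much. All 6 libraries came from 1 cell line and none is labelled as lacking p53, so p53-dependent and p53-independent changes cannot be told apart.

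p53 is kept at a low level by its E3 ligase MDM2 and accumulates when kinases that sense DNA damage or mitotic stress signal to it. It then binds, as a tetramer, to sites made of a pair of short repeats, mostly near or within the genes it activates. Beside cell-cycle and death genes, its reported targets include ligands, membrane channels, enzymes of lipid, peptide and drug metabolism, RNA-modifying and RNA-decay factors, and proteins of mitochondria and vesicles.

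Total counts ran from 28537837 in TH588 replicate A to 99074175 in TH588 replicate B. TH588 replicate A was also the library in which the small nucleolar RNA *SNORD3A* took the largest share of counts, 21.94% against 7.681% to 12.95% in the other 5. Values are CPM, counts per 1000000 counts of a library, with library sizes scaled by TMM, a normalization that assumes that most genes do not change. In bulk RNA, fewer cells expressing a gene and less RNA per cell cannot be told apart. A gene was called when its adjusted p was under 0.05 in edgeR's quasi-likelihood test, fitted over the 15844 genes that passed the filter on low counts. The smallest p an exact permutation of 3 against 3 libraries can give is 0.1, which is why single genes were judged by that fit.

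Most of the less studied p53 targets were higher after TH588. Of the 56 that passed the filter, 47 (83.9%) were called higher, where 24.4% of all genes tested were. 2 (3.57%) were called lower, where 25.5% of all genes were, and 7 were not called. 29 of those tested (51.8%) were called higher by over 2-fold, against 9.78% of all genes. The 3 TH588 libraries all lay above the 3 DMSO libraries for 47 members (83.9%), against 28.7% of all genes, and all lay below them for 2 (3.57%), against 29% of all genes. The median log2 fold change was 1.01 among the members tested and 0.02 among all genes tested. 5 members passed the filter only through their TH588 libraries (*HES2*, *PLXNB3*, *TRIM22*, *KCNN4* and *ORAI3*) and could hardly have passed without differing. All 5 are counted in the 29 and in both counts of 47 above. Among the other 51, 42 were called higher, 2 lower and 7 neither, and the median log2 fold change was 0.91. Of those 42, 6 had a log2 fold change over 2 and 18 between 1 and 2. Without TH588 replicate A, the shallow library, 47 members were again called higher and 2 lower. Among the 47, the highest TH588 library was replicate A for 21, B for 10 and C for 16.

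**Figure D1:**
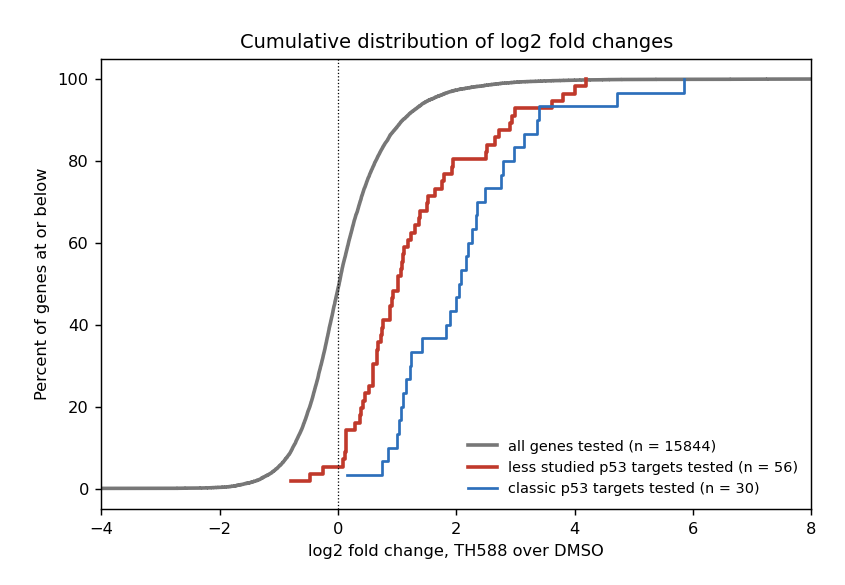
Cumulative share of genes (vertical axis, percent) at or below each log2 fold change of TH588 over DMSO (horizontal axis), for all 15844 genes tested (grey), the 56 less studied p53 targets tested (red, with HES2 placed at its lower bound) and 30 classic p53 targets tested (blue). The red curve crosses the middle at 1.01, the grey one at 0.02 and the blue one at 2.07.

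The classic targets, a list of 32 arrest, repair and death genes, were read beside them. That list, too, was chosen with earlier results of these data known. Of the 30 tested, 29 were called higher and none lower, with a median log2 fold change of 2.07. Their largest rises were in *GDF15*, a stress cytokine, with a log2 fold change of 5.85 (SE 0.15, adjusted p = 1.09e-11, edgeR), and *CDKN1A*, which encodes the cell-cycle inhibitor p21, with 4.71 (SE 0.14, adjusted p = 4.95e-11). *PERP*, a desmosome protein of epithelia, was the 1 tested gene of that list that was not called (0.15, adjusted p = 0.446), and *PMAIP1*, a death gene, had no counts in any library. *SFN*, among those called higher, passed the filter only through TH588, with 0, 1 and 5 counts under DMSO and 6, 25 and 16 under TH588. The difference between the lists was not tested.

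Summed over all 60, the members took 1390, 1357 and 1360 CPM in the DMSO libraries (in the order A, B, C) and 2605, 2520 and 2511 CPM in the TH588 libraries. The helicase gene *ASCC3* alone gave a large part of this, and without it the sums were 1032 to 1069 CPM under DMSO and 2021 to 2067 CPM under TH588. The members spanned a wide range of abundance. With DMSO, 16 had a mean under 1 CPM and 9 a mean over 50 CPM, and with TH588 8 remained under 1 CPM. Per kilobase of exon, the median member stood at 1.22 CPM under DMSO and 2.58 CPM under TH588. The length used counts every exon annotated for a gene, not the transcript expressed. Levels per kilobase, and the ranks drawn from them, therefore compare genes only roughly. The most abundant member per kilobase was *ASCC3* in both groups, at 27.2 and 42.9 CPM per kilobase. *SAC3D1* came next with DMSO, at 21.1 CPM per kilobase, and *PLXNB2* with TH588, at 41.5.

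**Figure D2:**
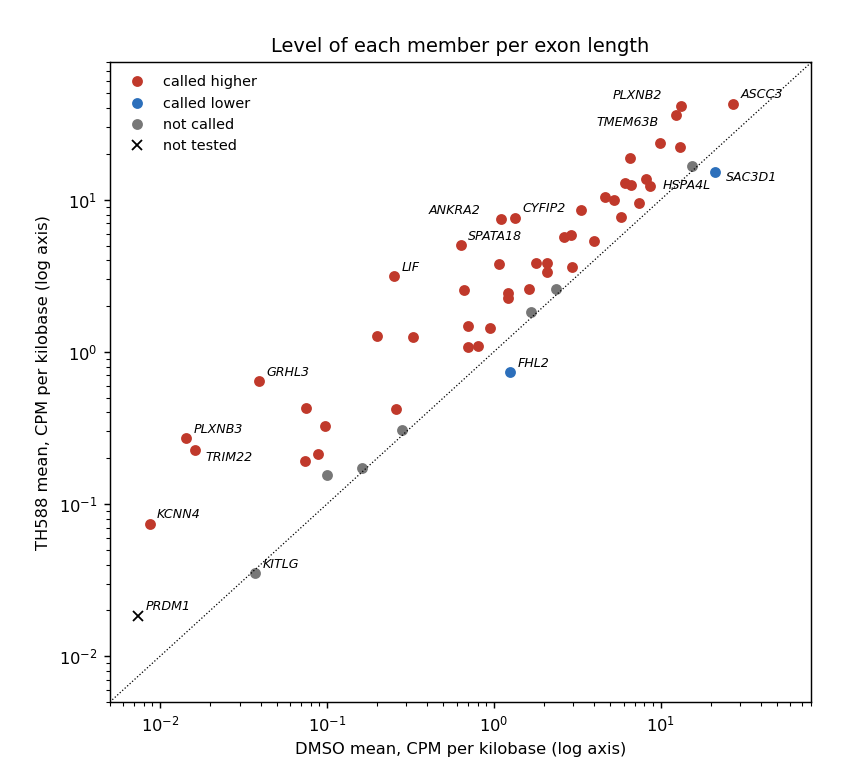
Mean level of each member in CPM per kilobase of exon, with DMSO on the horizontal and TH588 on the vertical axis, both logarithmic. Points above the dotted line of equal levels are higher with TH588. 56 members are drawn, and HES2, INPP1, TGFA and LAPTM5, which had no counts with DMSO, are left out.

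The letters of a p53 site were looked for around the start of each member, since binding by p53 is what brought these genes onto the list. RefSeq gave a start and a promoter on GRCh38 (GRCh38.p14) for 52 of the 60. *APOBEC3C*, *ASCC3*, *CMBL*, *FBXO22*, *LIF*, *PGPEP1*, *TMEM68* and *TRIM22* had no entry in the table used. The full p53 consensus of 20 bases was searched on both strands, with no spacer between its repeats, at most 2 mismatches and the core C and G of both repeats intact. Within 2500 bases on either side of the start, 13 of the 52 members (25%) held such a match, against 3.82% of 18994 genes with a promoter. Among tested genes the shares were 27.1% of 48 members and 3.78% of 11123 genes. This wide window was added after the shorter promoters had been planned, and repeats were not masked. In the 300 bases of the promoter itself (250 before and 50 after the start), where spacers of up to 13 bases were allowed, 2 of 52 members (3.85%), *DCP1B* and *SYTL1*, held a full match against 2.79% of all genes with a promoter. A single repeat of 10 bases without mismatch, also planned, was less frequent in members. It was present in 3.85% of member promoters and 6.04% of all promoters. Among tested genes the shares were 4.17% and 5.22%. Among tested genes, GGGCGG was present on either strand in 75% of member promoters and 68.6% of all promoters, CCAAT in 25% and 36.8%, and TATAAA in 6.25% and 6.24%. Over all genes with a promoter, tested or not, the shares were 75% and 54.5% for GGGCGG, 23.1% and 36.2% for CCAAT, and 5.77% and 10.2% for TATAAA. Because the rule that chose the members rests on reported binding, these shares are a description of the list.

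Of the 13 sites, 12 had 2 mismatches and 1 had a single mismatch. They lay between 1993 bases before and 2313 bases after the start, 6 upstream and 7 downstream. The matches below are shown because they belong to the members with the closest match (*SLC12A4*), with large rises (*SPATA18*, *ACER2*, *KCNN4*), with a match nearest to the start (*DCP1B*) and with a match but no called change (*HSPA4L*). Each is given 5′ to 3′ along the strand of its gene, with the 20 bases of the match in capitals and 10 flanking bases on either side.
SLC12A4: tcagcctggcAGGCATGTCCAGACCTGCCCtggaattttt
SPATA18: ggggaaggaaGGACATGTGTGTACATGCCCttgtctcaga
ACER2: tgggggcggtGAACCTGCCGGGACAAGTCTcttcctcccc
KCNN4: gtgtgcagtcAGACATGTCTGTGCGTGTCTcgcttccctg
DCP1B: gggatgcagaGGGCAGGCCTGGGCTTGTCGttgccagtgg
HSPA4L: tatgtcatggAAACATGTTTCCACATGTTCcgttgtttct

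The *SLC12A4* match lies at chr16:67966362-67966381 (minus strand), 2313 bases after the start and within an intron. In *SPATA18* it lies at chr4:52051957-52051976 (plus strand), 653 bases after the start, and in *ACER2* at chr9:19409522-19409541 (plus strand), 513 bases after the start, both in introns. *KCNN4* has its match at chr19:43782947-43782966 (minus strand), 1993 bases before the start, where GENCODE v44 lists no gene. The *DCP1B* match is at chr12:2004650-2004669 (minus strand), 212 bases before the start, within the span of *CACNA1C* and an exon of an unnamed long non-coding RNA. *HSPA4L* holds its match in an intron, at chr4:127783509-127783528 (plus strand), 1713 bases after the start. The other 7 matches belonged to *EPS8L2*, *PTP4A1*, *TLR3*, *TRAF4*, *TRIM32*, *ZNF337* and *ZNF561*. Of the 13 members with a match, 12 were called higher, 0 lower and 1 was not called, with a median log2 fold change of 0.74. Of the 35 tested members with a promoter entry and no match, 27 were called higher, 2 lower and 6 neither, with a median of 1.01. The difference between these medians was not tested.

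**Figure D3:**
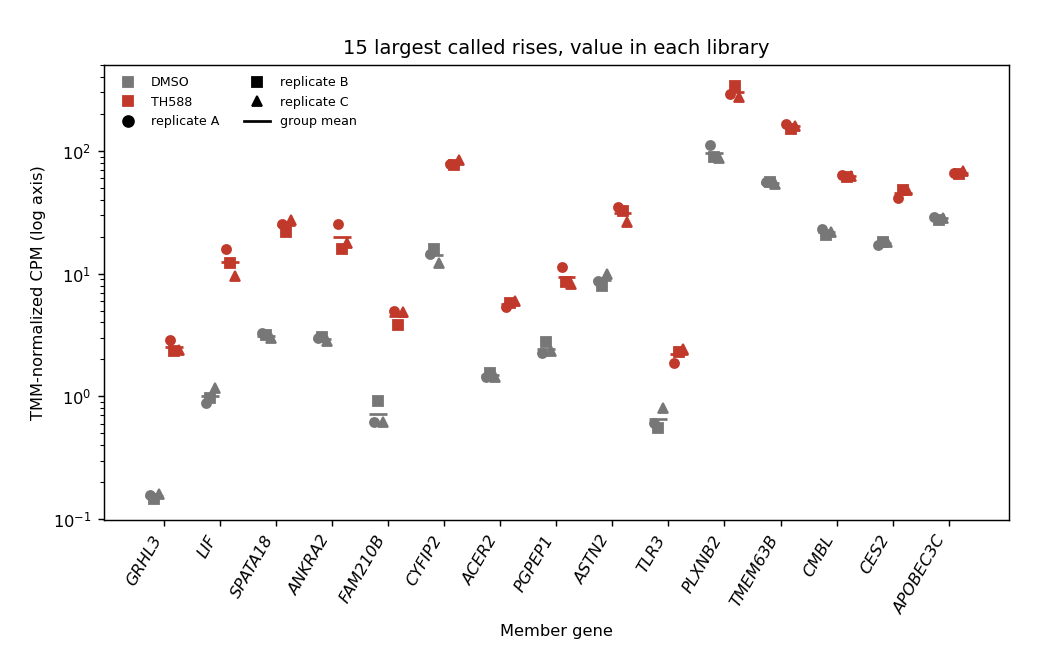
TMM-normalized CPM (vertical axis, logarithmic) in each library for the 15 members with the largest called rises among those whose mean log2 CPM was 0 or more. Grey marks are DMSO and red marks TH588, the shape gives the replicate (A circle, B square, C triangle) and the line the group mean. In every gene the 3 red marks lie above the 3 grey ones, and the log2 fold changes run from 1.24 to 4.01.

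Transcription factors and nuclear regulators made up 10 of the members. Of the 9 tested, 8 were called higher and 1 lower, with a median log2 fold change of 1.01. These figures include *HES2*, which passed the filter only through TH588. *GRHL3*, a grainyhead factor of epithelial differentiation (ENSG00000158055, chr1:24319322-24364482, plus strand), stood at 0.158, 0.145 and 0.16 CPM in the DMSO libraries and at 2.88, 2.34 and 2.38 CPM in the TH588 libraries, always in the order A, B, C. The groups lay far apart, and its log2 fold change was 4.01 (SE 0.27, adjusted p = 3.73e-08), the largest of the 15 shown by library. *ANKRA2*, an ankyrin-repeat partner of histone deacetylases and of megalin (ENSG00000164331, chr5:73552335-73565686, minus strand), stood at 2.99, 3.07 and 2.81 CPM under DMSO and 25.5, 16 and 17.8 CPM under TH588. The DMSO libraries were close together, while TH588 replicate A stood apart above B and C, and the log2 fold change was 2.73 (SE 0.17, adjusted p = 1.52e-08). *HES2*, a basic helix-loop-helix repressor of the Hairy and Enhancer-of-split family (ENSG00000069812, chr1:6412418-6424670, minus strand), had no counts in any DMSO library and reached 0.486, 0.184 and 0.132 CPM under TH588. Set against the level that 3 counts per DMSO library would give, it was at least 7.64-fold higher (adjusted p = 0.000801). This bound leans on TH588 replicate A, the shallow library, and is 4.52-fold without it.

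The other nuclear members moved less. *IER5*, an immediate early gene that acts with the heat-shock factor, went from 12.2 ± 1.7 to 24.5 ± 5.5 CPM (mean ± SD, n = 3 each, as in the pairs that follow), with a log2 fold change of 1.01 (SE 0.15, adjusted p = 8.47e-05). *SERTAD1*, a regulator of E2F and CDK4 activity, went from 2.57 ± 0.765 to 5.16 ± 0.384 CPM, with a log2 fold change of 1.01 (SE 0.20, adjusted p = 0.000701). The zinc-finger genes *ZNF79*, *ZNF561* and *ZNF337* had log2 fold changes of 0.93, 0.74 and 0.59, with adjusted p-values of 3.23e-06, 2.49e-05 and 0.006. Reads of *ZNF561* can be shared with its near copy *ZNF562*. Of its 31-base words, 18.4% occur in transcripts of other genes and 11.1% in *ZNF562*. It stood at 53.1, 49.8 and 55.5 CPM under DMSO and 102, 79.8 and 82.9 CPM under TH588, whereas *ZNF562* went the other way, with a log2 fold change of -0.23 (adjusted p = 0.0284). *ZNF337* shares 73.8% of its exon bases with an antisense gene, *ZNF337-AS1*, which held a mean of 0.0223 CPM under DMSO and none with TH588. *ZNF337* itself stood at 3.85, 3.78 and 3.25 CPM under DMSO and 5.79, 6.09 and 4.48 CPM under TH588, and its groups did not overlap.

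*FHL2*, a LIM-domain cofactor that binds many transcription factors (ENSG00000115641, chr2:105357712-105438513, minus strand), was the nuclear member called lower. It stood at 8.24, 8.65 and 8.14 CPM under DMSO and 5.98, 5.34 and 3.32 CPM under TH588. All TH588 libraries lay below the DMSO libraries, with replicate C the lowest, and the log2 fold change was -0.80 (SE 0.18, adjusted p = 0.00187). *PRDM1*, which encodes the repressor BLIMP1, did not pass the filter. Its counts were 9, 0 and 3 in the DMSO libraries and 0, 15 and 18 in the TH588 libraries, with a library of each group at 0.

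All 11 receptors, channels and membrane proteins were tested and called higher, with a median log2 fold change of 1.64. *PLXNB3*, *KCNN4* and *ORAI3* among them passed the filter only through TH588 and could hardly have passed without differing. The count and the median include them. *PLXNB3*, a semaphorin receptor of the plexin B family (ENSG00000198753, chrX:153764196-153779346, plus strand), stood at 0.134, 0.0727 and 0.0961 CPM under DMSO and 2.35, 1.8 and 1.56 CPM under TH588. It was among the members that passed the filter only through TH588, and its log2 fold change was 4.20 (SE 0.34, adjusted p = 2e-07). It shares 20.4% of its exon bases with *SRPK3*, which did not pass the threshold (log2 fold change 0.42, adjusted p = 0.321). Its relative *PLXNB2* (ENSG00000196576, chr22:50274979-50307627, minus strand) was far more abundant per kilobase of exon (13.3 against 0.0144 CPM per kilobase under DMSO) and stood at 111, 89.3 and 88.2 CPM under DMSO and 289, 340 and 274 CPM under TH588. DMSO replicate A and TH588 replicate B were the high libraries of their groups, and the log2 fold change was 1.64 (SE 0.11, adjusted p = 3.49e-08).

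*ORAI3*, a pore subunit of store-operated calcium channels (ENSG00000175938, chr16:30949066-30956461, plus strand), stood at 0.195, 0.121 and 0.278 CPM under DMSO and 1.05, 1.18 and 1.2 CPM under TH588, a log2 fold change of 2.52 (SE 0.35, adjusted p = 3.51e-05). An unnamed gene that covers 52.9% of its exon bases had no counts in any library. *KCNN4*, a calcium-activated potassium channel (ENSG00000104783, chr19:43766533-43781257, minus strand), stood at 0, 0 and 0.0854 CPM under DMSO and 0.299, 0.23 and 0.204 CPM under TH588, a log2 fold change of 2.90 (SE 0.90, adjusted p = 0.0152). Its DMSO level rests on replicate C. Without that library the DMSO level is 0, and TH588 was at least 6.69-fold higher than the level of 3 counts per library. This figure leaves out the only DMSO library with counts, so it is not a lower bound for the full comparison. With DMSO replicate C kept, the fold was 7.47, with a confidence interval from 2.2 to 25.4. *TMEM63B*, a channel opened by osmotic and mechanical stretch (ENSG00000137216, chr6:44126914-44155519, plus strand), stood at 55.3, 55.3 and 53.8 CPM under DMSO and 166, 151 and 160 CPM under TH588. This was a tight rise in an abundant gene, with a log2 fold change of 1.53 (SE 0.08, adjusted p = 3.63e-09).

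*ASTN2*, an astrotactin of neuronal adhesion and receptor trafficking (ENSG00000148219, chr9:116425225-117415070, minus strand), stood at 8.7, 7.99 and 10 CPM under DMSO and 34.9, 32.2 and 26.3 CPM under TH588. The TH588 libraries spread more than the DMSO ones but stayed well above them, and the log2 fold change was 1.80 (SE 0.13, adjusted p = 5.56e-08). *TLR3*, the endosomal receptor for double-stranded RNA (ENSG00000164342, chr4:186069152-186088069, plus strand), stood at 0.608, 0.557 and 0.811 CPM under DMSO and 1.87, 2.29 and 2.44 CPM under TH588, a log2 fold change of 1.75 (SE 0.24, adjusted p = 2.68e-05). It remained a gene of low level, and DMSO replicate C was the highest of its group. *SLC12A4*, a potassium-chloride cotransporter, went from 50.6 ± 4.11 to 107 ± 4.11 CPM, with a log2 fold change of 1.09 (SE 0.09, adjusted p = 1.6e-07). *NINJ1*, which ruptures the plasma membrane late in cell death, went from 1.86 ± 0.122 to 3.92 ± 0.371 CPM, with a log2 fold change of 1.07 (SE 0.16, adjusted p = 9.01e-05). *EPHA2*, an ephrin receptor kinase and an abundant member, went from 54.5 ± 6.84 to 92.2 ± 9.51 CPM, with a log2 fold change of 0.76 (SE 0.10, adjusted p = 3.23e-05). *SUSD6*, also called DRAGO and described as a drug-activated p53 target, moved the least of this group, from 4.12 ± 0.374 to 6.25 ± 0.3 CPM, with a log2 fold change of 0.60 (SE 0.13, adjusted p = 0.00187).

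Secreted ligands and matrix proteins were divided. Of 7 members, 6 were tested, 3 were called higher, 0 lower and 3 neither, with a median log2 fold change of 0.43. *LIF*, a cytokine of the interleukin-6 family (ENSG00000128342, chr22:30240447-30246851, minus strand), stood at 0.876, 0.969 and 1.17 CPM under DMSO and 15.8, 12.1 and 9.61 CPM under TH588. TH588 replicate A was the highest and C the lowest of its group, yet C was far above every DMSO library, and the log2 fold change was 3.62 (SE 0.20, adjusted p = 5.84e-09). *VWCE*, a secreted protein with von Willebrand factor C and EGF domains, went from 0.432 ± 0.216 to 1.04 ± 0.229 CPM, with a log2 fold change of 1.30 (SE 0.37, adjusted p = 0.00895). *PGF*, a placental growth factor of the VEGF family, went from 1.54 ± 0.287 to 2.51 ± 0.668 CPM, with a log2 fold change of 0.73 (SE 0.23, adjusted p = 0.0155). Both calls depended on single libraries. *VWCE* had an adjusted p of 0.0511 without TH588 replicate B, and *PGF* had 0.14 without that library and 0.0574 without DMSO replicate C.

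The matrix proteoglycan *VCAN* was at 1.09 times its DMSO level (95% interval 0.897 to 1.33) after TH588, and *TSKU*, a secreted leucine-rich inhibitor of TGF-beta and Wnt signals, at 1.09 times its DMSO level (95% interval 0.936 to 1.27), so that rises of 2-fold lay outside both intervals. *KITLG*, the ligand of the receptor KIT, was at 0.836 times its DMSO level (95% interval 0.342 to 2.05), an interval that holds changes of 2-fold in both directions. Its values were 0.0974, 0.436 and 0.16 CPM under DMSO and 0.374, 0.184 and 0.0959 CPM under TH588, and its direction turned with the library left out. *TGFA*, an EGF receptor ligand, did not pass the filter and had 2 counts in all, both in TH588 replicate B.

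The organelle, vesicle and cytoskeleton group held 10 members. Of the 9 tested, 7 were called higher, 1 lower and 1 neither, and the median log2 fold change was 1.11. *SPATA18*, also called Mieap and known for mitochondrial quality control (ENSG00000163071, chr4:52051331-52097292, plus strand), stood at 3.26, 3.14 and 2.99 CPM under DMSO and 25.5, 22 and 27.4 CPM under TH588. The libraries of each group were close together, and the log2 fold change was 2.99 (SE 0.12, adjusted p = 7.82e-10). *FAM210B*, a mitochondrial protein (ENSG00000124098, chr20:56358915-56368663, plus strand), stood at 0.621, 0.909 and 0.619 CPM under DMSO and 4.93, 3.8 and 4.88 CPM under TH588. Replicate B was the highest of the DMSO libraries and the lowest of the TH588 libraries, and the log2 fold change was 2.65 (SE 0.21, adjusted p = 1.87e-07). *CYFIP2*, a subunit of the WAVE complex that controls branched actin (ENSG00000055163, chr5:157266079-157395595, plus strand), stood at 14.4, 16 and 12.3 CPM under DMSO and 78.4, 77.2 and 84.8 CPM under TH588, a log2 fold change of 2.50 (SE 0.11, adjusted p = 8.04e-10). Of these 3, *SPATA18* had the largest log2 fold change.

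*EPS8L2*, an actin regulator, went from 0.419 ± 0.192 to 1.1 ± 0.0111 CPM, with a log2 fold change of 1.39 (SE 0.35, adjusted p = 0.00403). *BLOC1S2*, a subunit of complexes that position lysosomes, went from 7.74 ± 0.169 to 16.8 ± 1.95 CPM, with a log2 fold change of 1.11 (SE 0.12, adjusted p = 2.44e-06). *CCDC90B*, a mitochondrial coiled-coil protein, stood at 12.6, 13.3 and 15.3 CPM under DMSO and 25.9, 23.8 and 26.2 CPM under TH588 (log2 fold change 0.88, adjusted p = 8.76e-06). It shares 14% of its exon bases with other genes, among them *ANKRD42* on the opposite strand, whose own log2 fold change was 0.07 (adjusted p = 0.62). *STX6*, a syntaxin of the trans-Golgi network, had a small rise from 25.8 ± 2.04 to 34.5 ± 2.13 CPM, 0.42 (SE 0.09, adjusted p = 0.00172) on the log2 scale. *SYTL1*, an effector of the vesicle GTPase RAB27, was at 1.52 times its DMSO level (95% interval 0.992 to 2.32) and was not called (adjusted p = 0.127).

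*SAC3D1*, a protein of the centrosome and spindle (ENSG00000168061, chr11:65040901-65044828, plus strand), was the other member called lower. It stood at 38.8, 35.3 and 37.8 CPM under DMSO and 31.3, 26.2 and 23.7 CPM under TH588, so that the highest TH588 library was below the lowest DMSO library, and the log2 fold change was -0.47 (SE 0.10, adjusted p = 0.00178). *LAPTM5*, a lysosomal membrane protein of blood cells, did not pass the filter. It had no counts in the DMSO libraries and 0, 11 and 4 counts in TH588 replicates A, B and C. With no filter it had an adjusted p of 0.0439 in edgeR, on counts in 2 libraries alone.

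All 6 metabolic enzymes were called higher, with a median log2 fold change of 1.44. *ACER2*, an alkaline ceramidase of the Golgi (ENSG00000177076, chr9:19409059-19452020, plus strand), stood at 1.45, 1.56 and 1.44 CPM under DMSO and 5.34, 5.79 and 5.97 CPM under TH588, a log2 fold change of 1.95 (SE 0.15, adjusted p = 1.51e-07). Of its 31-base words 14.5% occur in other genes, and its pseudogene *ACER2P1* had a mean of 0.015 CPM under TH588 and none with DMSO. *PGPEP1*, a peptidase that removes pyroglutamate from peptides (ENSG00000130517, chr19:18340587-18369950, plus strand), stood at 2.24, 2.75 and 2.36 CPM under DMSO and 11.4, 8.55 and 8.29 CPM under TH588. TH588 replicate A was above the other TH588 libraries, and the log2 fold change was 1.93 (SE 0.16, adjusted p = 2.27e-07). *CMBL*, a hydrolase that activates ester prodrugs (ENSG00000164237, chr5:10275875-10308026, minus strand), stood at 23.2, 20.8 and 21.7 CPM under DMSO and 63.6, 61 and 62.9 CPM under TH588, a log2 fold change of 1.51 (SE 0.08, adjusted p = 7.11e-09). *CES2*, the carboxylesterase that activates irinotecan (ENSG00000172831, chr16:66934444-66945096, plus strand), stood at 17.2, 18 and 18.1 CPM under DMSO and 41.2, 48.2 and 47.8 CPM under TH588, a log2 fold change of 1.37 (SE 0.09, adjusted p = 4.19e-08). The genes that share 10.9% of the exon bases of *CES2* had no counts in any library. *NADSYN1*, which catalyses the last step of NAD synthesis, went from 29.3 ± 0.826 to 62.6 ± 0.728 CPM, with a log2 fold change of 1.10 (SE 0.08, adjusted p = 7.5e-08). *TMEM68*, an acyltransferase of the endoplasmic reticulum, went from 10.5 ± 1.21 to 19.4 ± 1.42 CPM, with a log2 fold change of 0.88 (SE 0.12, adjusted p = 2.15e-05).

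Members that act on RNA or on protein turnover and folding numbered 8. All were tested, 7 were called higher and 1 was not called, with a median log2 fold change of 0.80. These figures include *TRIM22*, which passed the filter only through TH588. *TRIM22*, an antiviral E3 ligase (ENSG00000132274, chr11:5689689-5737089, plus strand), stood at 0.0243, 0.194 and 0.0747 CPM under DMSO and 1.35, 1.29 and 1.47 CPM under TH588. The TH588 libraries were alike while the DMSO libraries rested on few counts, and the log2 fold change was 3.80 (SE 0.46, adjusted p = 1.06e-05). It was 4.71 without DMSO replicate B, the highest of its group. *TRIM22* lies within the span of *TRIM5*, which also rose (0.84, adjusted p = 0.00022), and the olfactory receptor gene that shares 10.7% of its exon bases had no counts.

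*APOBEC3C*, a cytidine deaminase that restricts viruses (ENSG00000244509, chr22:39014083-39020352, plus strand), stood at 29, 27.2 and 28.3 CPM under DMSO and 65.9, 64.6 and 68.9 CPM under TH588, a log2 fold change of 1.24 (SE 0.08, adjusted p = 3.2e-08). Of its 31-base words, 10.5% occur in other genes, and its neighbours in sequence *APOBEC3F* and *APOBEC3D* had log2 fold changes of 1.72 (adjusted p = 7.09e-08) and 1.98 (adjusted p = 0.000303). *RPS27L*, a ribosomal protein paralog that p53 induces in many cells, stood at 41.5, 47.6 and 37.8 CPM under DMSO and 115, 84.4 and 88.9 CPM under TH588, a log2 fold change of 1.18 (SE 0.12, adjusted p = 1.71e-06). Of its 31-base words 13.1% occur in other genes. *XACT*, *CHST12* and *DYNC1H1* share the most, the top gene 1.85%. Its close relative *RPS27*, not among those named, had a log2 fold change of -0.02 (adjusted p = 0.963).

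*ASCC3*, a helicase of the ASC-1 complex that resolves stalled ribosomes and alkylated DNA, was the most abundant member and went from 319 ± 10.7 to 504 ± 30 CPM, with a log2 fold change of 0.66 (SE 0.08, adjusted p = 7.49e-06). *FBXO22*, an F-box protein of an SCF ubiquitin ligase, stood at 77.4, 77.8 and 80.7 CPM under DMSO and 140, 146 and 156 CPM under TH588 (log2 fold change 0.91, adjusted p = 3.59e-07). It shares 16.2% of its exon bases with *NRG4* on the opposite strand, which was not called (-0.48, adjusted p = 0.2). *DCP1B*, a cofactor of mRNA decapping, went from 9.64 ± 0.472 to 15.4 ± 0.374 CPM, with a log2 fold change of 0.68 (SE 0.11, adjusted p = 9.86e-05). *TRIM32*, an E3 ligase, had a small rise from 22 ± 1.45 to 29 ± 0.607 CPM, 0.39 (SE 0.09, adjusted p = 0.00221) on the log2 scale. It lies within the span of *ASTN2* on the opposite strand and shares no exon base with it. *HSPA4L*, a chaperone of the HSP110 family, was at 1.08 times its DMSO level (95% interval 0.966 to 1.21) and was not called (adjusted p = 0.279). It was among the most abundant members per kilobase and went from 179 ± 6.12 to 194 ± 17.7 CPM.

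Signal transducers and phosphatases had the lowest median of the 7 groups. Of 8 members, 7 were tested, 5 were called higher and 2 were not called, and the median log2 fold change was 0.37. *DUSP14*, a phosphatase of MAP kinases, had the largest rise of the group, from 4.04 ± 0.325 to 6.43 ± 0.565 CPM, 0.66 (SE 0.14, adjusted p = 0.000959) on the log2 scale. *PTP4A1*, the phosphatase PRL-1, stood at 45.5, 56.7 and 53 CPM under DMSO and 76.2, 65.8 and 81.4 CPM under TH588 (log2 fold change 0.52, adjusted p = 0.000659). Its groups did not overlap, but 82.5% of its 31-base words occur in other genes. An unnamed gene that is not in the count table holds 82.5% of its words. *PTP4A1P7* and *PTP4A1P1*, which share words too, had no counts in any library. How reads that fit several places were counted is not given in the sources used here. The small GTPase *RAP2B* went from 6.71 ± 0.471 to 9.2 ± 0.268 CPM, with a log2 fold change of 0.46 (SE 0.12, adjusted p = 0.00478). *TRAF4*, an adaptor of TNF-receptor-associated signalling, stood at 33.3, 35.9 and 32.8 CPM under DMSO and 44, 43.3 and 44.8 CPM under TH588 (log2 fold change 0.37, adjusted p = 0.00173), and the antisense genes that share 16.9% of its exon bases had no counts.

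*IKBIP*, a protein of the endoplasmic reticulum that interacts with IKK beta, had the smallest called rise, from 12.3 ± 0.481 to 14.9 ± 0.709 CPM, 0.28 (SE 0.10, adjusted p = 0.0393) on the log2 scale. Its call was lost with the replicate block (adjusted p = 0.0844), with no filter (0.0675), and without any single library other than TH588 replicate A (0.0513 to 0.1). *PLCL2*, a phospholipase C-like protein without catalytic activity, was at 1.1 times its DMSO level (95% interval 0.904 to 1.33), and *TNFAIP8*, which carries phosphoinositides and blocks apoptosis, at 1.06 times its DMSO level (95% interval 0.742 to 1.52). Both intervals end below a 2-fold rise. *INPP1*, an inositol phosphatase, did not pass the filter, with no counts in the DMSO libraries and 0, 1 and 3 counts in TH588 replicates A, B and C.

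**Figure D4:**
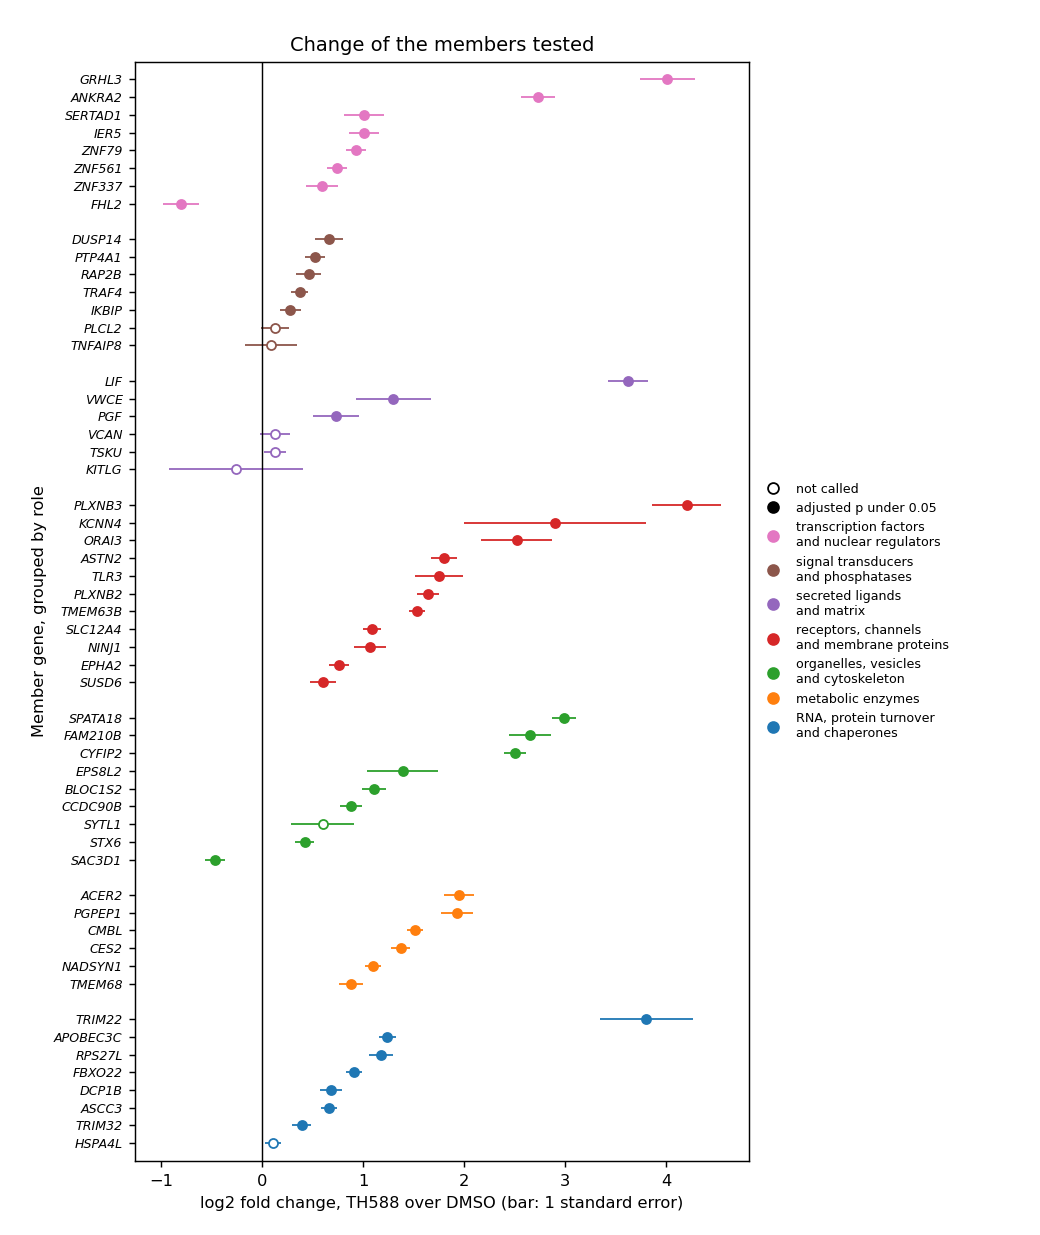
Log2 fold change of TH588 over DMSO (horizontal axis) for 55 members tested, grouped and coloured by role, with bars of 1 standard error. Filled points had an adjusted p under 0.05 and open points did not. HES2, without counts in DMSO, is left out. Every receptor, channel and membrane protein and every metabolic enzyme lies right of 0, while FHL2 and SAC3D1, both called lower, and KITLG, not called, lie left of it.

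The size of the rises was spread widely. Of the 47 members called higher, 11 had a log2 fold change over 2, 18 between 1 and 2, and 18 under 1. 5 of the 11 were the members that passed the filter only through TH588, which leaves 6 over 2 among the others. The 5 smallest, under 0.5, ran from 0.28 to 0.46. The members also lay far apart in the genome, on 19 chromosomes. Chromosomes 1 and 11 held 7 each, and the only pairs within 100 kilobases were *ASTN2* with *TRIM32* and *STX6* with *IER5*, whose genes are 65591 bases apart.

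Some members respond to other pathways than p53, so the genes of 2 of these were read alongside. Among 30 interferon-stimulated genes, 20 were tested, 11 were called higher and 1 lower, with a median log2 fold change of 0.72. *IFIT2* (3.43) and *ISG20* (1.70) had the largest rises on the log2 scale, *OAS3* (-0.61) was the 1 called lower, and the defining antiviral genes *MX1*, *MX2* and *OAS1* had no counts in any library. *IFIT2* passed the filter only through TH588, with 3, 4 and 2 counts in the DMSO libraries and 7, 52 and 33 in the TH588 libraries. The list summed to 287 to 306 CPM under DMSO and 314 to 343 CPM under TH588. Among 20 NF-kB targets, 10 were tested, 6 were called higher and 2 lower, with a median of 0.59. *ICAM1* (1.73) and *TNFAIP3* (1.4) rose the most, *NFKBIA* (-0.53) and *NFKB1* (-0.26) were the genes called lower, and the chemokines *CXCL1*, *CXCL3* and *CCL2* and the cytokine gene *TNF* had no counts. The sums of that list overlapped, at 185 to 196 and 186 to 193 CPM. The part of either pathway in the rises of *TLR3*, *TRIM22*, *APOBEC3C* or *LIF* was not tested.

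The labelled cell type was checked against its markers. Of 12 epithelial and ovarian markers, 3 were tested and all were called higher, and the 12 summed to 6.46 to 7.66 CPM under DMSO and 15.4 to 16.3 CPM under TH588. *EPCAM* (2.87) and *KRT18* (0.88) had the largest rises on the log2 scale. *PAX8*, *MUC16* and *KRT7*, which define many ovarian carcinomas, had no counts with DMSO. Fibroblast markers were abundant in both groups, at 1868 to 2218 CPM under DMSO and 2142 to 2849 CPM under TH588, mostly from *COL3A1*. Of 9 tested, 4 were called higher, led by *COL1A2* (1.37) and *PDGFRA* (0.78), and *THY1* (-1.04) and *POSTN* (-0.33) were called lower. Blood cell markers summed to 1.93 to 2.53 CPM under DMSO and 2.34 to 3.55 CPM under TH588, with *CD14* (2.30) and *HBA1* (0.98) called higher and *CD3E*, *CD3D* and *HBB* at 0. *CD14* passed the filter only through TH588, with 3, 6 and 8 counts in the DMSO libraries and 11, 35 and 23 in the TH588 libraries. The part of these marker shifts in the members' rises was not tested.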

How the data were processed

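PolyA RNA of 3 DMSO and 3 TH588 cultures of A2780 cells was sequenced with the TruSeq RNA kit. The authors aligned reads to GRCh38 with TopHat, counted them per gene with featureCounts 1.4.6 (submitters' processing notes) and deposited raw counts of 58336 genes without normalization. Strand and multi-mapped read settings are not given in the sources used here. Total counts were 28537837 to 99074175 per library, and every value column was matched to a library.

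The members and gene lists were chosen with earlier results of these data known. The whole table was fitted with edgeR 4.0.16 (R 4.3.3): default filter on low counts (a CPM cutoff of 0.118), TMM, robust quasi-likelihood test of treatment, Benjamini-Hochberg adjustment over 15844 genes. SE is the log2 fold change over the square root of F, and 95% intervals are 1.96 SE on the log2 scale. The factor 1.96 ignores the few degrees of freedom of the F test, so these intervals are approximate and somewhat too narrow. p-values measure the spread between these replicates. Floors are 3 counts per library (0.0276 to 0.112 CPM) and cover counting error only. Replicates differed by more than sampling noise (chi-square per degree of freedom 23.5 to 165), so each counted once.

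All members are named. Values per library are given for the 15 largest called rises whose mean log2 CPM was 0 or more, members called lower, members that failed the filter, and members with at least 10% of exon bases, or of 31-base words of their GENCODE v44 transcripts, shared with other genes. From other lists the 2 largest called rises and falls are named, and a few other genes were chosen after their values were seen. Sequences and starts are from RefSeq (GRCh38.p14) and GRCh38, and promoters of all 18994 genes compared equalled the genome. On simulated counts of 15567 genes for TH588 against DMSO, with 194 genes changed 2-fold, the test recovered 71.1%, and 6.76% of its calls were false. In the data 7908 genes were called. The simulation therefore does not give the share of false calls where so many genes change. Alternatives were other scalings, DESeq2 1.42.0, limma-voom (limma 3.58.1), other filters, a replicate block, each library left out, and removal of the 10 most abundant genes.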

Additional observations from a re-analysis of the deposited data

How the results depend on the processing

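Across the alternatives tried, 43 to 47 members were called higher and 2 lower. The lowest count came with at least 10 counts required in every library, which leaves 51 members to test. DESeq2 and limma-voom each gave 47, an adjusted p under 0.01 gave 44, and leaving out 1 library at a time gave 44 to 47. 43 of the 47 members called higher kept their call in every alternative they were tested in. *IKBIP*, *PGF* and *VWCE* lost it under other settings at the same threshold, and *IKBIP*, *PGF* and *KCNN4* at an adjusted p under 0.01. The median log2 fold change of the members, 1.01, was 1.122 with library size only, 1.074 with DESeq2, 1.046 with limma-voom, 1.084 with no filter, 0.948 with at least 10 counts in every library, and 0.949 to 1.120 with each library left out. Scaling by library size only moved the median of all genes from 0.02 to 0.126, and higher genes then made up 60.4% of calls against 48.8%, so rises near that size depend on the scaling. Among members not called, the direction turned with a library left out for *KITLG* (-0.682 to 0.568), *TNFAIP8* (-0.081 to 0.401) and *PLCL2* (-0.004 to 0.246), and the cause was not tested. Libraries with the same replicate letter showed no shared deviation from their group means (correlations of deviations -0.071, -0.083 and 0.00082). The labels do not say whether cultures of the same letter were handled together, and these correlations cannot settle it. With the letter as a replicate block, 46 members were called higher and 2 lower, with a median of 1.023, and 7327 genes were called in all against 7908. 29 classic targets were called higher, or 28 with at least 10 counts in every library. Depth limits the low members: in TH588 replicate A, 3 counts correspond to 0.112 CPM.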
